A study of Mus musculus with 12 samples.

Results

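The ESCRT machinery (endosomal sorting complexes required for transport) was described here by 32 genes: subunits of ESCRT-0, ESCRT-I, ESCRT-II and ESCRT-III, the VPS4 ATPase with its cofactor Vta1, and ALIX (Pdcd6ip), syntenin (Sdcbp) and 2 endosomal partners, Ptpn23 and Usp8. Members were taken from the deposited count table by gene symbol, which found 31 of the 32 among 55421 genes, and 30 of these passed the filter on low counts and were tested beside 18108 genes in all. Vps28 was found by its Ensembl identifier alone, because its line carries no symbol, and its values are given apart from all counts of members. Vps25 was the member that did not pass the filter.

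ESCRT complexes act one after another on the endosome membrane. ESCRT-0 gathers ubiquitinated receptors, ESCRT-I and ESCRT-II deform the membrane, ESCRT-III polymerises into filaments that cut the neck of the bud, and VPS4 takes those filaments apart. The vesicles that form inside the endosome can be digested in the lysosome or released as exosomes, and ALIX with syntenin offers another way of recruiting ESCRT-III to cargo such as syndecans. The same machinery also cuts the bridge between daughter cells, seals the nuclear envelope and repairs the plasma membrane.

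The samples were cultures of MOC2, a line from a mouse squamous carcinoma of the mouth. Cells titled MOC2-25 are labelled EV-Proficient and cells titled MOC2-27 are labelled EV-Deficient, where EV stands for extracellular vesicle and the study blocked vesicle release genetically. The labels do not name the gene, so no check of a targeted gene was possible, and each EV label stands for 1 derivative line. All cells were grown and plated in the same supplemented medium. Each derivative was sampled with DMSO as the treatment of its controls and after 48 h of 600 nM paclitaxel, which stabilises microtubules and was given to make the cells senescent. The 4 groups held 3 libraries each. Nothing in the labels says that the libraries of a group came from separate cultures, so p-values measure only the spread between these libraries, which may be technical.

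Library totals ran from 23263472 to 62955757 counts. Values are CPM (counts divided by library size and multiplied to a common scale) on library sizes scaled by trimmed mean of M values, and 3 counts corresponded to between 0.0477 and 0.129 CPM on unscaled totals. Of the squamous and epithelial markers, Krt8, Krt18, Cdh1, Epcam, Krt14 and Krt17 averaged between 241 and 1469 CPM, while the basal markers Krt5 and Trp63 reached at most 8 and 11 counts in a library. The summed markers of haematopoietic cells lay between 1.51 and 14.9 CPM, and those of endothelial cells between 1.69 and 4.26 CPM. The endothelial sum was low but higher in every paclitaxel library. It lay at 2.31 to 2.49 and 2.55 to 3.02 CPM without and with drug in EV-Proficient cells. In EV-Deficient cells it lay at 1.69 to 2.32 and 3.28 to 4.26 CPM. The 10 summed squamous and epithelial markers were lower in every paclitaxel library, at 5246 to 5716 CPM without and 3753 to 4117 CPM with drug in EV-Proficient cells, and at 6014 to 6552 and 3217 to 3343 CPM in EV-Deficient cells. The 5 summed fibroblast markers were low but higher in every paclitaxel library, at 1.58 to 2.49 and 5.18 to 6.33 CPM in EV-Proficient and 2.59 to 3.22 and 6.81 to 8.19 CPM in EV-Deficient cells. The haematopoietic sum, mostly Csf1r, was lowest in EV-Proficient DMSO (1.51 to 2.02 CPM); it lay at 13.6 to 13.9 CPM in EV-Deficient DMSO, at 12.7 to 14.9 CPM in EV-Proficient paclitaxel and at 5.97 to 8.24 CPM in EV-Deficient paclitaxel. Mitochondrially encoded genes took 0.550% to 0.729% of counts in the 6 DMSO libraries and 0.846% to 1.45% in the 6 paclitaxel libraries, without overlap; the part of this share and of the marker sums in the results was not tested.

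The EV labels crossed between treatments in 1 of the 2 lines that the authors added to the table, named gfp and dngfr. Without drug, the dngfr line had 8.99 ± 3.23 CPM (SD, n = 3) in the EV-Proficient and 2.15 ± 0.35 CPM in the EV-Deficient libraries. Under paclitaxel the EV-Proficient libraries had 3.24 ± 0.68 CPM and the EV-Deficient ones 10.9 ± 1.4 CPM, and the gfp line had 0 counts in every library. Across all genes, the difference between the EV labels had opposite signs under DMSO and under paclitaxel for 67.1% of 18108 genes, and of 2834 genes called under both treatments 2722 had opposite signs. Whether the EV labels of 1 treatment were exchanged was not tested. Groups are named below as labelled, and the paclitaxel effect averaged over both EV labels is given first because it is the same whichever way the labels run. Paclitaxel effects within 1 EV label, and their interaction, hold only as the libraries are labelled.

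Promoter sequences are shown for some of the members whose RNA changed with paclitaxel, as examples of the start regions of members that rose and members that fell. They come from RefSeq on GRCm38.p6 and hold 250 bases before and 50 bases after the annotated start; 23 of the 32 members had an entry, 25 entries in all. Chmp1b, Vps37a, Chmp4c, Sdcbp, Snf8, Vps37b and Chmp6, all called in the averaged paclitaxel comparison, had no entry. Vps37c had entries and fell more (log2 −0.60) than Hgs and Pdcd6ip, but is not shown. Chmp5 (chr4:40948303-40948602, + strand) and Chmp2b (chr16:65562713-65563012, − strand) rose, and Hgs (chr11:120467385-120467684, + strand) and Pdcd6ip (chr9:113708210-113708509, − strand) fell. Capitals mark matches to the motifs searched, on either strand. Starts are those of RefSeq, which match the GENCODE gene starts for Hgs and Pdcd6ip, lie 146 bases downstream for Chmp5 and 36 bases upstream for Chmp2b.
Chmp5: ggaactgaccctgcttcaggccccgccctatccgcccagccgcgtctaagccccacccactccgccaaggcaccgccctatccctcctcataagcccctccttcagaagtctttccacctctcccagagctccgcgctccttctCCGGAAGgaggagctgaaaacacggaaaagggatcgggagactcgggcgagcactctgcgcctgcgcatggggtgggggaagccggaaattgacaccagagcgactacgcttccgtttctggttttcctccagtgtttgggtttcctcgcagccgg
Chmp2b: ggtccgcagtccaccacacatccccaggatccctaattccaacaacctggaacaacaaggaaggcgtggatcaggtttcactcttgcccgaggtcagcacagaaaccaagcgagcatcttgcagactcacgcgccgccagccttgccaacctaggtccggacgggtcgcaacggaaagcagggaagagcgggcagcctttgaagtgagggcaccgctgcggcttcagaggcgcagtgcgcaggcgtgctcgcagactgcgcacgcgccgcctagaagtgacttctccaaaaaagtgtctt
Hgs: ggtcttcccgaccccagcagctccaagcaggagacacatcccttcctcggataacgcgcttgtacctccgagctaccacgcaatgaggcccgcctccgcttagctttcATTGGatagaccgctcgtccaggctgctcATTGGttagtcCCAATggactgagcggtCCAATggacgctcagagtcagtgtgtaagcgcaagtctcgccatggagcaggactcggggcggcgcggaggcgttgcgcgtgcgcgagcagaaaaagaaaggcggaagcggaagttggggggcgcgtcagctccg
Pdcd6ip: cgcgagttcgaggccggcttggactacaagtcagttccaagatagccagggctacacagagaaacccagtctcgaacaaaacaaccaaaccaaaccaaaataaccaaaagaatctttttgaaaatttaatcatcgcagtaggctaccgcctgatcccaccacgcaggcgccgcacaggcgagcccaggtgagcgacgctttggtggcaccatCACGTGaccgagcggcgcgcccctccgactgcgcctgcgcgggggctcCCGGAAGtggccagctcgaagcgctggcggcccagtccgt

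The Chmp5 promoter has CCGGAAG, an ETS-type motif, beginning 106 bases before the RefSeq start and so inside the gene as GENCODE draws it. The Hgs promoter has 4 matches to CCAAT, beginning 142, 113, 102 and 85 bases before the start. The Pdcd6ip promoter has CACGTG, the core of the E-box found in many lysosomal genes, beginning 38 bases before the start, and CCGGAAG beginning 10 bases after it. None of the 5 motifs matched in the Chmp2b window, which says only that these letters are not there. CCGGAAG matched in 36% of the 25 member entries against 8.86% of 32851 promoters, CCAAT in 24% against 37.4%, and CACGTG in 4% against 7.15%. TGANTCA matched in 8% of member entries against 7.81% and TGACGTCA in 4% against 1.79%. Member promoters had a median GC content of 61.7% against 52.7% for all promoters, so GC-rich motifs start from a different base composition. CCGGAAG was found in 9 members with no common direction under paclitaxel in the main scaling: 2 were called higher, 4 lower, 2 were not called and 1 was not tested. On library totals with no scaling factor Usp8, Chmp5, Tsg101, Chmp1a and Vta1 were called higher and Pdcd6ip lower, while Chmp3 and Ptpn23 were not called. In the main scaling 37.1% of all genes were called higher. CCAAT was found in 6 members, of which 4 were called lower (Hgs, Chmp3, Ist1 and Ptpn23), 1 was not called and 1 was not tested. Of those 4 all but Hgs turned positive on library totals with no scaling factor, and 31.3% of all genes were called lower. Matches are descriptions of sequence and show no binding.

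Paclitaxel moved the ESCRT genes by small amounts and in both directions. Averaged over the EV labels, 18 of the 30 tested members changed, 7 higher and 11 lower, where 68.4% of all genes tested were called (edgeR quasi-likelihood test, Benjamini-Hochberg adjusted p under 0.05). Of all genes tested 37.1% were called higher and 31.3% lower. The median log2 fold change was −0.03 over the members and 0.07 over all genes. Changes of at least 1.5-fold were found in the main scaling for 3 of the 30 members (Chmp1b, Snf8 and Vps37c) against 38.6% of all genes, and 0 members reached 2-fold, against 22.9% of all genes. Chmp1b passed 2-fold with upper-quartile scaling (log2 1.10) and on library totals with no scaling factor (1.23). On those totals Vps37a (0.60), Chmp2b (0.64) and Chmp5 (0.68) passed 1.5-fold, and Snf8 (−0.46) and Vps37c (−0.34) did not. All 6 paclitaxel libraries lay above all 6 DMSO libraries for 3 members and below them for 6, against 18.3% and 18.5% of all genes. The split of 7 higher and 11 lower became 15 and 7 with upper-quartile scaling and 21 and 6 on library totals with no scaling factor, which moved the median of all genes up by 0.12 and 0.26, so the direction of small changes depends on the scaling. Of all genes called, 63.0% were higher with upper-quartile scaling and 72.7% on these totals. Under both of these scalings 13 of the 18 calls kept their direction, 7 higher and 6 lower, and Vps36, Chmp1a, Chmp3, Ist1 and Ptpn23 did not. The summed level of the members found by symbol was 3162 ± 93 CPM in EV-Proficient DMSO, 2999 ± 43 in EV-Deficient DMSO, 2904 ± 10 in EV-Proficient paclitaxel and 2895 ± 75 in EV-Deficient paclitaxel (SD, n = 3). In RNA from whole cultures, fewer cells of a kind and less RNA per cell cannot be told apart.

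**Figure D1:**
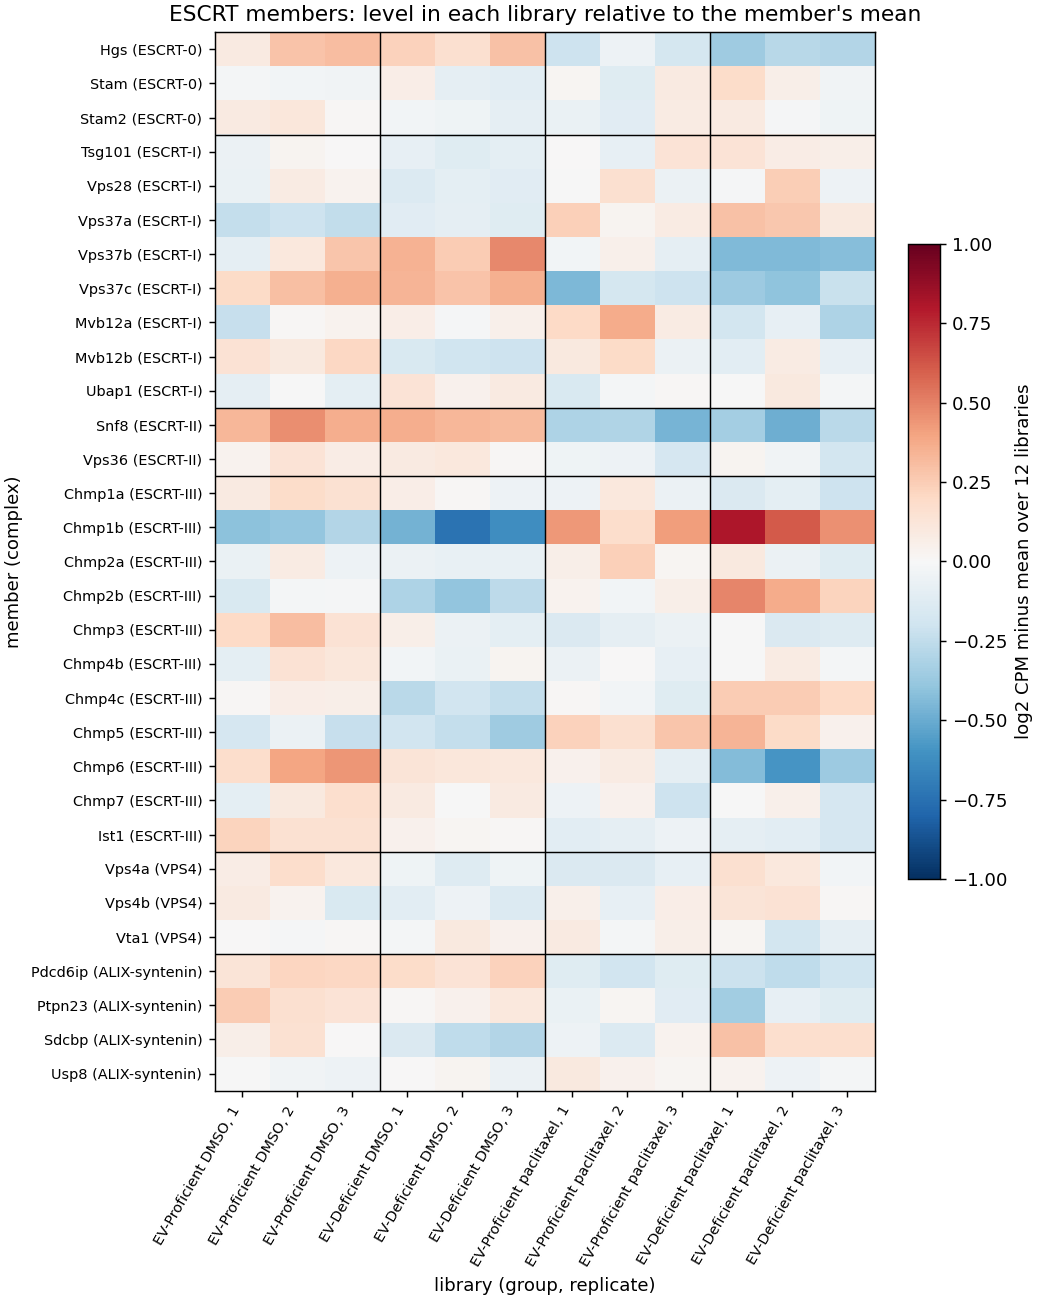
Level of each tested member in each of the 12 libraries, as log2 CPM minus the member's mean over the libraries; rows are members ordered by complex and columns are libraries ordered by group. Chmp1b is lower in all 6 DMSO libraries and higher in all 6 paclitaxel libraries, and Snf8, Vps37c, Hgs and Pdcd6ip run the other way.

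ESCRT-0 is made of Hgs, which binds ubiquitin and endosomal lipid, and of the STAM proteins Stam and Stam2. Hgs (chr11:120467635-120483979) stood at 186, 213 and 217 CPM in EV-Proficient DMSO and at 205, 195 and 214 CPM in EV-Deficient DMSO. It stood at 152, 169 and 155 CPM in EV-Proficient paclitaxel and at 136, 144 and 143 CPM in EV-Deficient paclitaxel. All 6 paclitaxel libraries lay below all 6 DMSO libraries. Hgs fell by 27.1%, a log2 fold change of −0.46 ± 0.05 (SE; edgeR adjusted p = 1.68e-08), and it fell in EV-Proficient (−0.37 ± 0.07) and in EV-Deficient cells (−0.54 ± 0.07) taken separately. With upper-quartile scaling the averaged value was −0.33 and on unscaled totals −0.19, called lower in both. Another annotated gene of the same name, which has no line of its own in the table, shares 97.2% of the exon bases of Hgs, so how the counting divided reads between them is uncertain. Stam (0.07) and Stam2 (−0.02) were not called in the averaged comparison in the main scaling, and in no group did their means leave the range from 74.8 to 85.3 CPM. Both were called higher with upper-quartile scaling (0.19 and 0.10) and on unscaled totals (0.33 and 0.24). The ESCRT-0 sum was 366 ± 15 and 358 ± 10 CPM in EV-Proficient and EV-Deficient DMSO, and 315 ± 8 and 304 ± 7 CPM in the corresponding paclitaxel groups.

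ESCRT-I is a rod of Tsg101, Vps28, 1 of several VPS37 proteins and an MVB12 or UBAP1 subunit. Of its 7 tested members 2 were called higher and 2 lower in the average, where 37.1% and 31.3% of all genes were. With upper-quartile scaling and on unscaled totals Mvb12a, Mvb12b and Ubap1 were called higher as well. The VPS37 genes, alternative subunits of the same position, went apart. Vps37a (chr8:40511783-40551134) read 68.7, 70.3 and 68.4 CPM in EV-Proficient DMSO, 74.7, 75.9 and 74.5 CPM in EV-Deficient DMSO, 95.3, 82.7 and 85.9 in EV-Proficient paclitaxel and 99.3, 97.5 and 86.7 CPM in EV-Deficient paclitaxel. Its treatments did not overlap, and it rose 1.27-fold (log2 0.34 ± 0.05, edgeR adjusted p = 1.66e-06). Vps37c (chr19:10688735-10714627) read 53.7, 58.0 and 60.2 CPM in EV-Proficient DMSO, 59.8, 57.3 and 60.2 CPM in EV-Deficient DMSO, 34.5, 41.8 and 40.9 in EV-Proficient paclitaxel and 36.7, 35.6 and 40.4 CPM in EV-Deficient paclitaxel. Again the treatments did not overlap, here with paclitaxel lower, and Vps37c fell by 34.2% (log2 −0.60 ± 0.06, edgeR adjusted p = 3.25e-09).

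Vps37b (chr5:124004641-124032270) fell too, but as labelled the fall was called in EV-Deficient cells only. It read 44.7, 51.2 and 57.6 CPM in EV-Proficient DMSO, 60.4, 56.7 and 66.2 CPM in EV-Deficient DMSO, 46.6, 49.2 and 44.6 in EV-Proficient paclitaxel and 34.9, 35.1 and 35.4 CPM in EV-Deficient paclitaxel. The EV-Deficient paclitaxel libraries lay below all others, while the EV-Proficient groups overlapped. Set against the DMSO libraries of the other EV label, each paclitaxel group lay lower without overlap. The averaged log2 fold change was −0.46 ± 0.06 (edgeR adjusted p = 4.18e-07), with −0.80 ± 0.08 in EV-Deficient (adjusted p = 2.64e-08) and −0.13 ± 0.08 in EV-Proficient cells (adjusted p = 0.206), the latter 0.070 and not called on unscaled totals. Of its exon bases 42.5% lie opposite Hip1r and Gm37939 on the other strand, and strand use in the counting is not given in the sources used here. Hip1r itself had an averaged log2 fold change of 0.10 ± 0.05 and was not called (edgeR adjusted p = 0.0841), and Gm37939 had 0 counts.

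Measured per kilobase of exon, Vps37a stood below both of its relatives without drug. Its ratio to Vps37b was 0.597 ± 0.077 in EV-Proficient DMSO and 0.539 ± 0.047 in EV-Deficient DMSO, and 0.823 ± 0.081 and 1.18 ± 0.09 in the corresponding paclitaxel groups (SD, n = 3). The ratio of Vps37a to Vps37c was 0.513 ± 0.031 and 0.539 ± 0.020 without drug and 0.968 ± 0.180 and 1.07 ± 0.14 with it. These ratios compare genes within a library and do not depend on the scaling of libraries.

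Tsg101, the ubiquitin-binding core subunit, moved little. It read 101, 107 and 106 CPM in EV-Proficient DMSO, 99.4, 96.7 and 98.4 CPM in EV-Deficient DMSO, 105, 99.6 and 116 in EV-Proficient paclitaxel and 116, 111 and 109.5 CPM in EV-Deficient paclitaxel. The averaged log2 fold change of 0.11 ± 0.04 was called higher (edgeR adjusted p = 0.033), but the treatments overlapped, and the call held in 8 of 20 alternative settings. In EV-Deficient cells alone it was 0.19 ± 0.06 (edgeR adjusted p = 0.0109) and in EV-Proficient cells 0.03 ± 0.06 (adjusted p = 0.723), a value that became 0.23 and was called on unscaled totals. Mvb12a, an ESCRT-I subunit that binds membrane and ubiquitin, was not called in the average (0.03 ± 0.06), and its 2 paclitaxel effects had opposite signs in the main scaling. It read 66.9, 79.0 and 80.5 CPM in EV-Proficient DMSO, 82.0, 77.9 and 81.5 CPM in EV-Deficient DMSO, 90.3, 101 and 83.2 in EV-Proficient paclitaxel and 69.1, 74.4 and 63.5 CPM in EV-Deficient paclitaxel. Mvb12a rose in EV-Proficient cells (0.28 ± 0.08, edgeR adjusted p = 0.00508) and was called lower in EV-Deficient cells (−0.22 ± 0.08, adjusted p = 0.0212). With upper-quartile scaling and on unscaled totals the rise was still called, whereas the EV-Deficient value was −0.039 and 0.10, called in neither. Mvb12b (0.04) and Ubap1 (−0.03) were not called in the average in the main scaling. They were called higher with upper-quartile scaling (0.17 and 0.095) and on unscaled totals (0.30 and 0.23). Vps28, outside the counts, had group means from 31.8 to 36.1 CPM and an averaged log2 fold change of 0.10 ± 0.06 (edgeR adjusted p = 0.136).

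ESCRT-II links ESCRT-I to ESCRT-III and contains Snf8 (VPS22), Vps36 and Vps25. Snf8 (chr11:96034885-96047430) was the member with the lowest averaged fold change. It read 74.7, 81.8 and 76.1 CPM in EV-Proficient DMSO, 76.4, 74.6 and 74.0 CPM in EV-Deficient DMSO, 47.9, 48.2 and 43.0 in EV-Proficient paclitaxel and 46.9, 42.2 and 49.3 CPM in EV-Deficient paclitaxel. The lowest DMSO library, at 74.0 CPM, lay far above the highest paclitaxel library, at 49.3 CPM, and the EV labels overlapped within each treatment. Snf8 fell by 39.3% (log2 −0.72 ± 0.05, edgeR adjusted p = 3.28e-11), with −0.74 ± 0.07 in EV-Proficient and −0.70 ± 0.07 in EV-Deficient cells. Vps36 was lower by −0.15 ± 0.05 (edgeR adjusted p = 0.00745) in the main scaling, was not called with upper-quartile scaling and turned to 0.11 on unscaled library totals. Vps25 had between 0 and 23 counts in a library, at most 0.377 CPM, whereas every other member averaged 16.1 CPM or more. Of its exon bases 67.2% are shared with Ramp2 on the same strand, a gene at 0.449 CPM. The low value of Vps25 is therefore uncertain as a measure of its RNA.

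ESCRT-III holds the filament-forming CHMP proteins and Ist1. Of 11 tested members 4 rose (Chmp1b, Chmp5, Chmp2b and Chmp4c) and 4 were called lower (Chmp6, Ist1, Chmp3 and Chmp1a). Of all genes 37.1% were called higher and 31.3% lower. Among the 4 lower members only Chmp6 kept its sign and its call under every scaling. Chmp2a was called higher too with upper-quartile scaling, and Chmp2a, Chmp4b, Chmp7 and Chmp1a were on unscaled totals. Chmp1b, which recruits the microtubule-severing enzyme spastin and lies in a single exon as a retrogene, had the highest averaged fold change of the members. It read 11.4, 11.6 and 12.4 CPM in EV-Proficient DMSO, 10.9, 9.09 and 9.82 CPM in EV-Deficient DMSO, 20.5, 17.1 and 20.3 in EV-Proficient paclitaxel and 26.5, 23.2 and 20.8 CPM in EV-Deficient paclitaxel. Every paclitaxel library lay above every DMSO library. Chmp1b rose 1.96-fold (log2 0.97 ± 0.08, edgeR adjusted p = 2.88e-10), 1.63-fold in EV-Proficient and 2.36-fold in EV-Deficient cells. A gene on the other strand covers 24% of its exon bases.

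Chmp5 (chr4:40948407-40965303), which binds the VPS4 cofactor Vta1, read 84.1, 91.0 and 80.8 CPM in EV-Proficient DMSO, 82.9, 80.3 and 74.1 CPM in EV-Deficient DMSO, 111, 106 and 115 in EV-Proficient paclitaxel and 120, 108 and 97.7 CPM in EV-Deficient paclitaxel. The treatments did not overlap, and Chmp5 rose 1.33-fold (log2 0.41 ± 0.05, edgeR adjusted p = 3.77e-07), with 0.37 ± 0.07 in EV-Proficient and 0.46 ± 0.07 in EV-Deficient cells; the difference between these had a 95% interval from −0.12 to 0.29. Chmp2b (chr16:65539128-65562726), whose mutations are known from frontotemporal dementia, read 74.4, 81.4 and 82.2 CPM in EV-Proficient DMSO, 67.0, 62.9 and 69.1 CPM in EV-Deficient DMSO, 84.6, 81.1 and 86.1 in EV-Proficient paclitaxel and 116, 107 and 96.7 CPM in EV-Deficient paclitaxel. Its averaged log2 fold change was 0.38 ± 0.05 (edgeR adjusted p = 6.12e-07). As labelled, it came mostly from EV-Deficient cells, with 0.69 ± 0.07 there and 0.08 ± 0.07 in EV-Proficient cells. The latter was 0.14 with upper-quartile scaling, not called, and 0.28 on unscaled totals, where it was called. Set against the DMSO libraries of the other EV label, each paclitaxel group of Chmp2b lay higher without overlap. Chmp4c, the CHMP4 form tied to the abscission checkpoint, went the same way, at 0.47 ± 0.06 in EV-Deficient and −0.09 ± 0.06 in EV-Proficient cells, the latter not called and 0.11 on unscaled totals.

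Chmp6, which connects ESCRT-II to the CHMP4 filament, fell by 26.9% on average (log2 −0.45 ± 0.05, edgeR adjusted p = 1.74e-07) and its treatments did not overlap. With upper-quartile scaling the averaged value was −0.33 and on unscaled totals −0.19, called lower in both. Ist1 (−0.20), Chmp3 (−0.19) and Chmp1a (−0.15) were called lower in the main scaling, and each turned positive on unscaled library totals (0.057, 0.073 and 0.11) and lost its call with upper-quartile scaling. Chmp4b, the main filament subunit, read 144, 171 and 167 CPM in EV-Proficient DMSO, 152, 147 and 157 CPM in EV-Deficient DMSO, 148, 154 and 146 in EV-Proficient paclitaxel and 154, 163 and 152 CPM in EV-Deficient paclitaxel. All 4 groups overlapped, and its averaged log2 fold change of −0.03 had a 95% interval from −0.12 to 0.06; on unscaled totals it was 0.23. Chmp2a (0.08) and Chmp7 (−0.11), which brings ESCRT-III to the nuclear envelope, were not called either in the main scaling. On unscaled totals both were called higher (0.34 and 0.15), and Chmp2a also with upper-quartile scaling (0.21).

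Per kilobase, Chmp1a exceeded its relative Chmp1b 10.8 ± 0.5-fold in EV-Proficient DMSO and 11.7 ± 0.9-fold in EV-Deficient DMSO, and 6.03 ± 1.03-fold and 4.45 ± 0.47-fold in the corresponding paclitaxel groups (SD, n = 3). The ratio of Chmp2a to Chmp2b was 1.80 ± 0.10 and 2.07 ± 0.10 without drug and 1.85 ± 0.21 and 1.33 ± 0.04 with it. In level per kilobase the members with the highest means over all libraries were Chmp4b (76.3 CPM per kb), Chmp2a (74.8), Chmp5 (63.1) and Hgs (59.5), an order that differed by group. Without drug Hgs (68.9 in EV-Proficient and 68.7 in EV-Deficient DMSO) and Pdcd6ip (57.9 in both) stood above Chmp5 (56.2 and 52.1), and in EV-Proficient paclitaxel Chmp2a (80.5) stood above Chmp4b (73.8). Over all libraries and apart from Vps25, the lowest were Mvb12b (4.28), Chmp1b (6.39) and Chmp7 (7.09), but Chmp1b lay next to Mvb12b in EV-Proficient DMSO (4.67 and 4.72) and above Chmp7 in both paclitaxel groups (7.64 against 6.73 in EV-Proficient and 9.32 against 6.88 in EV-Deficient cells).

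**Figure D2:**
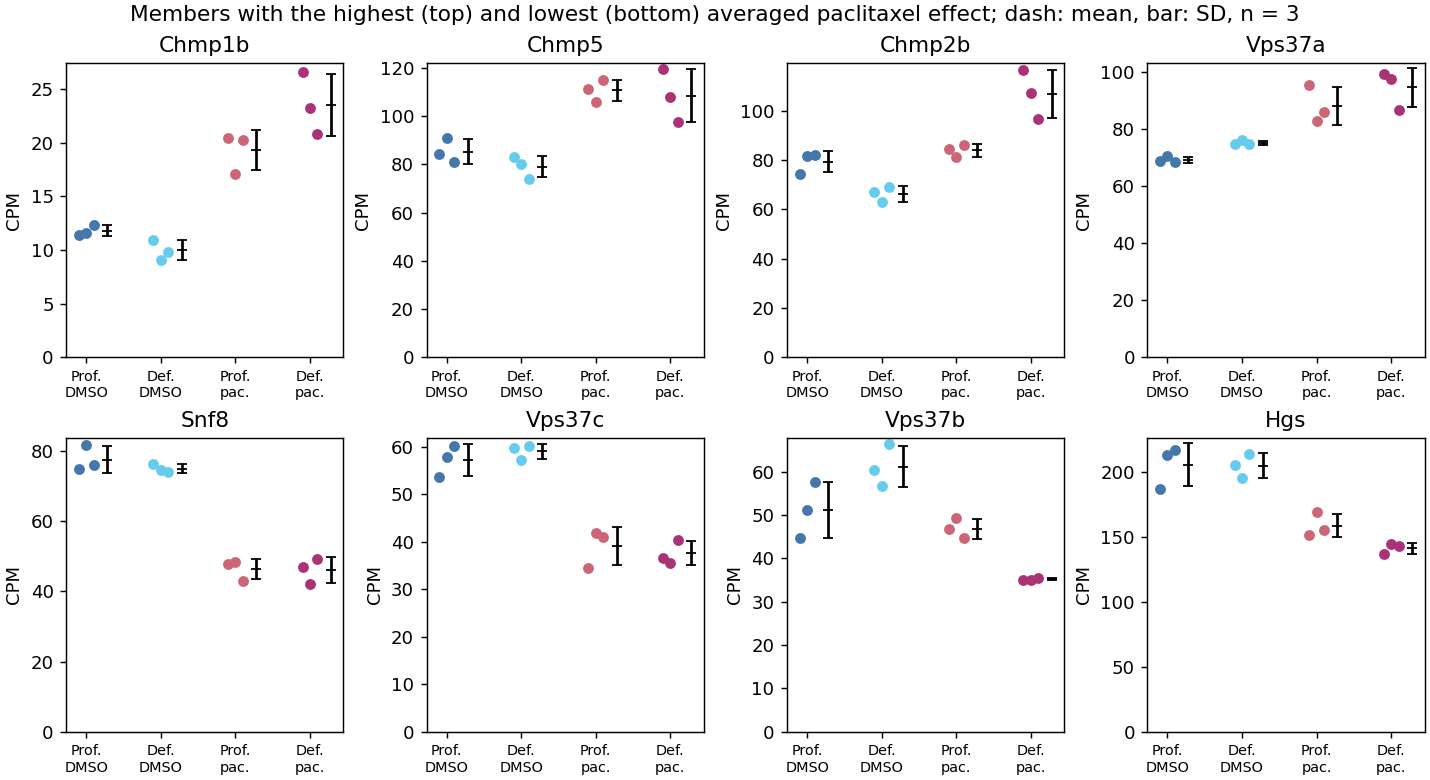
CPM in each library (points) with the mean and SD of each group (n = 3) for the 4 members with the highest and the 4 with the lowest averaged paclitaxel effect; axes start at 0. Chmp1b, Chmp5 and Vps37a are higher, and Snf8, Vps37c and Hgs lower, in all 6 paclitaxel libraries than in any DMSO library. Within a label, as labelled, Chmp2b and Vps37b separate by treatment only in EV-Deficient cells.

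**Figure D3:**
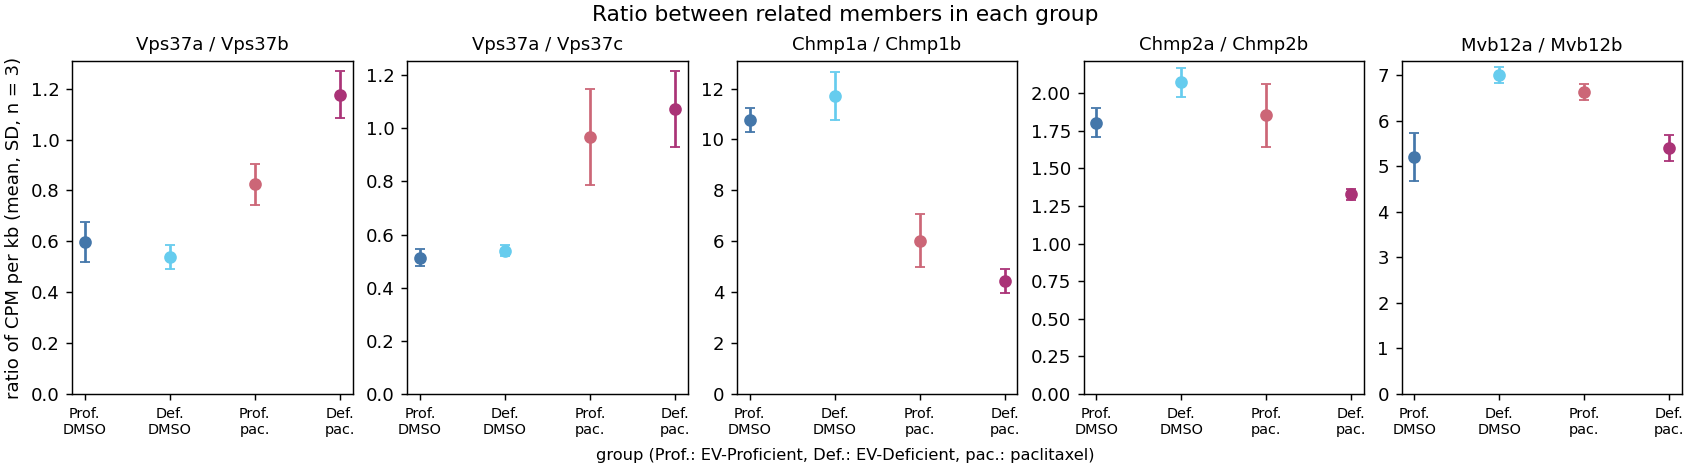
Ratio of CPM per kilobase between related members in each group (mean and SD, n = 3; axes start at 0). The Vps37a to Vps37c ratio goes from 0.513 and 0.539 without drug to 0.968 and 1.07 with it, and the Chmp1a to Chmp1b ratio goes from 10.8 and 11.7 to 6.03 and 4.45.

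The VPS4 ATPases and Vta1, which recycle the ESCRT-III filament, had 0 of 3 genes called in the average under the main scaling. At an unadjusted p under 0.05 Vps4b would pass and no other. With upper-quartile scaling Vps4b was called higher (0.23), and on unscaled totals all 3 were (Vps4b 0.37, Vps4a 0.22 and Vta1 0.22). Vps4a (chr8:107031222-107045755) read 61.7, 66.1 and 63.0 CPM in EV-Proficient DMSO, 56.9, 53.6 and 56.8 CPM in EV-Deficient DMSO, 53.1, 53.0 and 55.5 in EV-Proficient paclitaxel and 65.6, 63.1 and 57.4 CPM in EV-Deficient paclitaxel. The high groups were thus EV-Proficient DMSO and EV-Deficient paclitaxel. Vps4a was called lower with paclitaxel in EV-Proficient cells (−0.24 ± 0.07, edgeR adjusted p = 0.00359), a value of −0.044 that was not called on unscaled totals, and was called higher in EV-Deficient cells (0.15 ± 0.07, adjusted p = 0.0461), the latter in 8 of 21 alternative settings. Vps4b read 88.1, 85.0 and 74.3 CPM in EV-Proficient DMSO, 76.9, 79.9 and 75.4 CPM in EV-Deficient DMSO, 85.5, 78.3 and 86.5 in EV-Proficient paclitaxel and 90.6, 91.7 and 83.4 CPM in EV-Deficient paclitaxel. Its averaged difference was 0.10 ± 0.05 (edgeR adjusted p = 0.0653), and in EV-Deficient cells it rose by 0.19 ± 0.07 on the log2 scale (adjusted p = 0.0194). Vta1 (−0.04) stayed between 31.4 and 38.2 CPM in all libraries.

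Pdcd6ip encodes ALIX, which bridges syntenin or ESCRT-I to ESCRT-III. Pdcd6ip (chr9:113651744-113708259) read 384, 409 and 406 CPM in EV-Proficient DMSO, 399, 388 and 412 CPM in EV-Deficient DMSO, 324, 308 and 324 in EV-Proficient paclitaxel and 303, 295 and 307 CPM in EV-Deficient paclitaxel. No paclitaxel library reached a DMSO library. Pdcd6ip fell by 22.4% (log2 −0.37 ± 0.04, edgeR adjusted p = 2.38e-08), with −0.33 ± 0.05 in EV-Proficient and −0.40 ± 0.05 in EV-Deficient cells. With upper-quartile scaling the averaged value was −0.24 and on unscaled totals −0.11, called lower in both. Ptpn23 (HD-PTP), an ALIX-like protein that works with ESCRT in receptor down-regulation, was lower by −0.23 ± 0.05 (edgeR adjusted p = 1.81e-04), a value that became 0.026 on unscaled library totals. Usp8, the deubiquitinase that acts on endosomal cargo, was not called in the main scaling (0.04 ± 0.04). It was called higher with upper-quartile scaling (0.16) and on unscaled totals (0.30).

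Sdcbp encodes syntenin, the adaptor between syndecan tails and ALIX. Sdcbp (chr4:6365650-6408423) read 211, 225 and 202 CPM in EV-Proficient DMSO, 183, 169 and 165 CPM in EV-Deficient DMSO, 195, 184 and 207 in EV-Proficient paclitaxel and 247, 228 and 227 CPM in EV-Deficient paclitaxel. EV-Deficient libraries were the lowest without drug and the highest with it. Sdcbp rose in EV-Deficient cells (0.44 ± 0.06, edgeR adjusted p = 3.53e-06) and was not called in EV-Proficient cells (−0.12 ± 0.06, adjusted p = 0.111), where it was 0.075 on unscaled totals, also not called. In EV-Deficient cells Pdcd6ip was thus called lower and Sdcbp higher; on unscaled totals Sdcbp was called (0.77) and Pdcd6ip was not (−0.079).

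**Figure D4:**
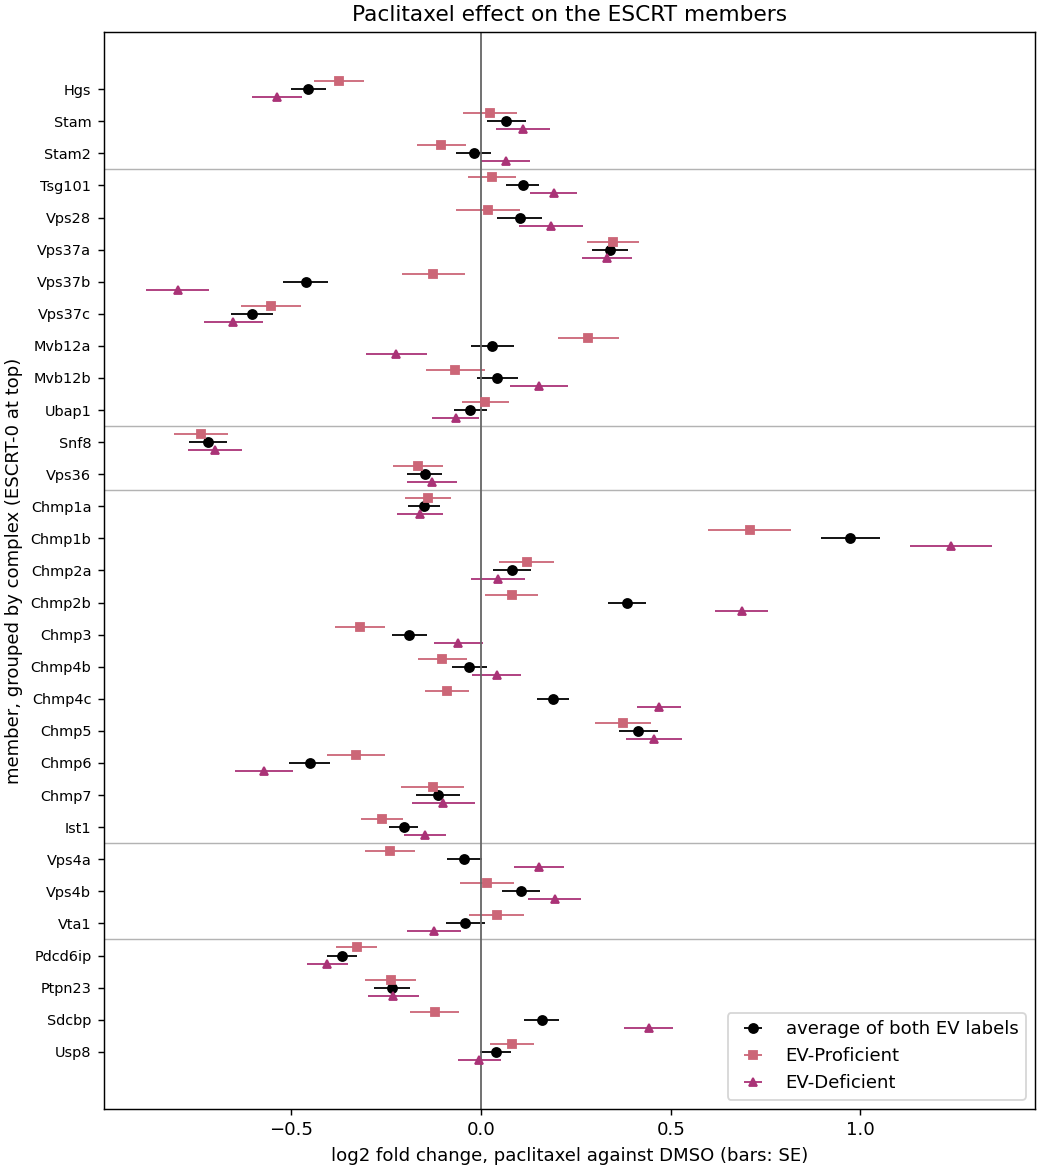
Log2 fold change of each tested member, paclitaxel against DMSO, averaged over both EV labels (black circles) and within each label (coloured squares and triangles); bars are SE. Chmp1b at 0.97 and Snf8 at −0.72 bound the averaged values, small values near 0 depend on the scaling of libraries (Vps36, Chmp1a, Chmp3, Ist1 and Ptpn23 turn positive on unscaled totals), and the labels part most for Vps37b, Chmp2b, Sdcbp, Chmp4c, Chmp1b and Mvb12a.

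Within EV-Proficient cells paclitaxel changed 14 of the 30 members, 4 higher and 10 lower, where 58.2% of all genes were called, and the members' median log2 fold change was −0.10 against 0.05 for all genes. Within EV-Deficient cells 19 of the 30 changed, 9 higher and 10 lower, where 62.9% of all genes were called, with medians of −0.03 and 0.07. With upper-quartile scaling these splits became 6 higher and 9 lower, and 15 higher and 6 lower, and on unscaled totals 12 and 4, and 22 and 5. Of all genes called in EV-Proficient cells 58.3% were higher with upper-quartile scaling and 68.7% on unscaled totals. In EV-Deficient cells these shares were 63.4% and 72.1%. Under both of these scalings 8 of the 14 calls (4 higher, 4 lower) and 14 of the 19 (9 higher, 5 lower) kept their direction. Over all genes, 31.1% were called higher and 27.1% lower in EV-Proficient cells, and 32.4% and 30.5% in EV-Deficient cells. The groups did not overlap for 5 members that were higher and 10 that were lower in EV-Proficient cells, against 33.1% and 29.2% of all genes. In EV-Deficient cells these numbered 10 and 10, against 35.2% and 33.5%. When the DMSO libraries of the other EV label served as control, EV-Proficient paclitaxel gave 13 calls (8 higher and 5 lower, where 56.9% of all genes were called, 30.1% higher and 26.8% lower) and EV-Deficient paclitaxel 16 calls (5 higher and 11 lower, where 61.4% were called, 32.6% higher and 28.8% lower).

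The response to paclitaxel differed between the EV labels for 8 of the 30 members, 6 of them positive and 2 negative, where the interaction was called for 40.7% of all genes (16.9% positive and 23.8% negative). The difference is the paclitaxel effect in EV-Deficient cells minus that in EV-Proficient cells. It was positive for Chmp2b (0.61 ± 0.10, edgeR adjusted p = 4.39e-05), Sdcbp (0.56 ± 0.09, adjusted p = 3.47e-05) and Chmp4c (0.56 ± 0.08, adjusted p = 1.32e-05), and also for Chmp1b (0.53), Vps4a (0.39) and Chmp3 (0.26). It was negative for Vps37b (−0.67 ± 0.12, edgeR adjusted p = 8.12e-05) and Mvb12a (−0.51 ± 0.11, adjusted p = 0.00118). Chmp4c, printed here for its interaction, read 88.0, 91.7 and 91.3 CPM in EV-Proficient DMSO, 72.6, 76.5 and 74.3 CPM in EV-Deficient DMSO, 88.2, 85.8 and 80.5 in EV-Proficient paclitaxel and 104.5, 104.1 and 100.4 CPM in EV-Deficient paclitaxel. The EV-Deficient groups were the lowest and the highest of the 4, with no overlap with the EV-Proficient libraries. The median interaction was 0.04 over the members and −0.04 over all genes. With upper-quartile scaling or unscaled totals the called interactions became 14, of which 12 were positive, and all 8 named here kept their direction and call. Of the interactions called over all genes, 53.9% and 54.6% were positive under these scalings.

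Between the EV labels, 8 of the 30 members differed under DMSO, 1 higher and 7 lower in EV-Deficient cells, where 23.0% of all genes were called, 12.4% higher and 10.6% lower. The 7 lower were Mvb12b (−0.34 ± 0.08), Sdcbp (−0.30 ± 0.06), Chmp4c (−0.28 ± 0.06), Chmp2b (−0.26 ± 0.07), Chmp3 (−0.25 ± 0.07), Chmp6 (−0.23 ± 0.08) and Vps4a (−0.19 ± 0.07), and the higher was Vps37b (0.26 ± 0.08), which alone of the 8 was called neither with upper-quartile scaling nor on unscaled totals. All 11 tested ESCRT-III members had a negative value, 4 of them called, where 45.0% of all genes were negative. The ESCRT-III sum without drug was 1029.8 ± 42 CPM for EV-Proficient libraries, against 927 ± 16 CPM for EV-Deficient ones (SD, n = 3). Under paclitaxel 6 of these 11 had a positive value, and the sums were 982 ± 20 and 990 ± 44 CPM. Members whose groups did not overlap numbered 13 lower and 2 higher, against 18.5% and 24.8% of all genes. The count of 8 rested on single libraries: it was 3 without EV-Proficient DMSO replicate 2, 5 without replicate 3 of that group, and 5, 4 and 4 without EV-Deficient DMSO replicates 1, 2 and 3. Fitting the DMSO groups alone gave 14 calls, 13 of them lower. The shares of all genes given above belong to the main fit, and none is given here for this fit.

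Under paclitaxel 9 of the 30 members differed between the EV labels, 5 higher and 4 lower in EV-Deficient cells, where 37.8% of all genes were called, 16.0% higher and 21.8% lower. This split became 10 higher and 3 lower with upper-quartile scaling and 11 higher and 3 lower on unscaled totals. Of all genes called, 58.2% and 59.9% were higher under these scalings. The groups did not overlap for 5 members that were higher and 6 that were lower, against 19.9% and 24.1% of all genes. Chmp2b (0.35 ± 0.07), Chmp1b (0.29 ± 0.11), Chmp4c (0.28 ± 0.06), Sdcbp (0.26 ± 0.06) and Vps4a (0.20 ± 0.07) were higher. Chmp6 (−0.47 ± 0.08), Vps37b (−0.42 ± 0.08), Mvb12a (−0.41 ± 0.08) and Hgs (−0.17 ± 0.07) were lower, the last called in 6 of 21 alternative settings, with neither upper-quartile scaling nor unscaled totals among them. Of the 6 members called under both treatments, 5 had opposite signs (Chmp2b, Chmp4c, Sdcbp, Vps37b and Vps4a), and Chmp6 was lower in EV-Deficient cells under both. Across the 30 members 18 had opposite signs, 60%, beside 67.1% of all genes. The dngfr line was high in the same pair of groups as Chmp2b is relative to the other label, EV-Proficient DMSO and EV-Deficient paclitaxel.

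**Figure D5:**
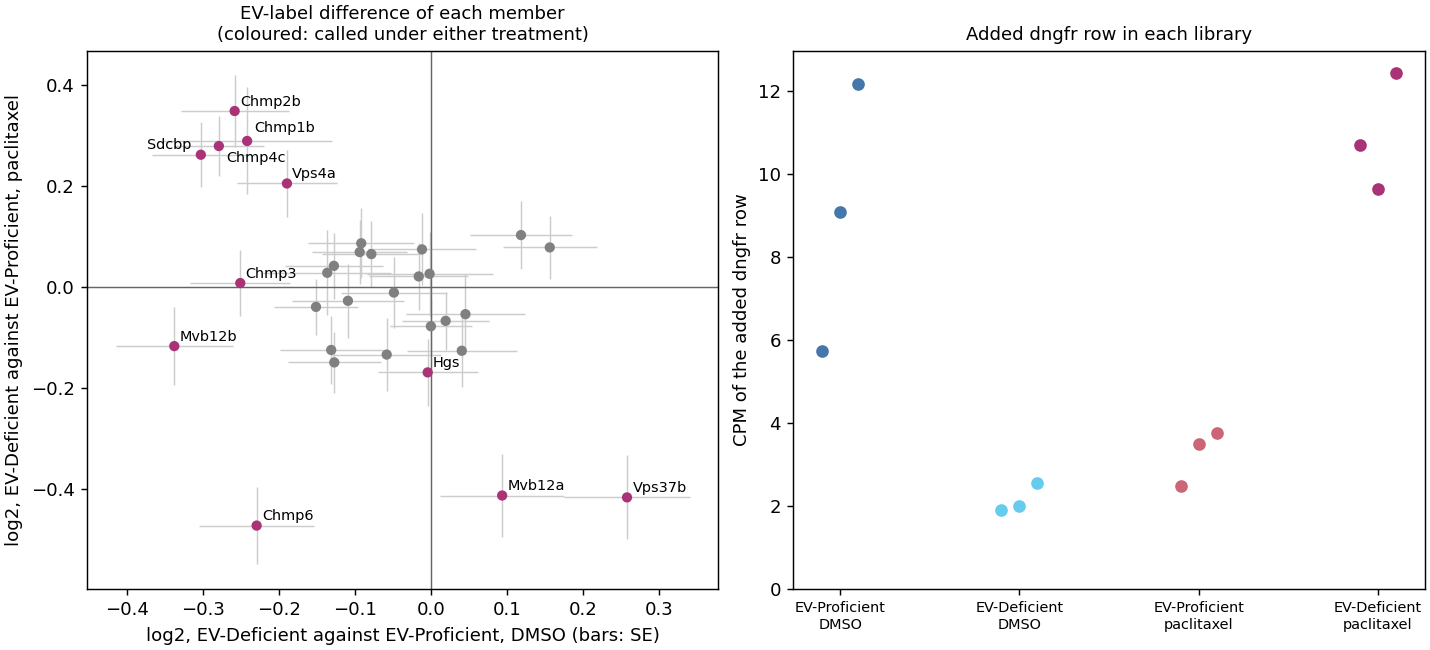
Left, log2 difference of each tested member between EV-Deficient and EV-Proficient libraries under DMSO (x axis) and under paclitaxel (y axis), with SE bars and members called under either treatment coloured and named; right, CPM of the added dngfr line in each library, axis from 0. Chmp2b, Chmp1b, Chmp4c, Sdcbp and Vps4a lie at upper left, Vps37b at lower right and Chmp6 at lower left, and the dngfr values are high in EV-Proficient DMSO and EV-Deficient paclitaxel.

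Other genes of the pathway were taken from a list of 40 cofactors, cargo adaptors, ubiquitin ligases and syndecans, of which 39 were in the table and all 39 were tested. With paclitaxel, averaged over the EV labels, 31 of the 39 changed, 14 higher and 17 lower, where 68.4% of all genes were called, 37.1% higher and 31.3% lower. Values and splits of these genes are given in the main scaling only. Upper-quartile scaling and unscaled totals moved the averaged median of all genes up by 0.12 and 0.26, so small values hold for the main scaling. Epn2, a clathrin adaptor with ubiquitin-interacting motifs, had means of 214 ± 7 CPM for EV-Proficient DMSO, 193 ± 6 in EV-Deficient DMSO, 395 ± 8 in EV-Proficient paclitaxel and 378 ± 42 in EV-Deficient paclitaxel, and rose 1.90-fold (log2 0.93 ± 0.05, edgeR adjusted p = 2.86e-13). Mitd1, an ESCRT-III-binding protein of late abscission, rose 1.61-fold (0.69 ± 0.07, edgeR adjusted p = 1.24e-08), with 16.5 ± 0.9 and 16.7 ± 0.1 CPM without drug and 22.1 ± 2.0 and 32.4 ± 4.1 CPM with it in EV-Proficient and EV-Deficient cells. Wwp2, a ubiquitin ligase of the NEDD4 family, fell by 43.4% (−0.82 ± 0.05, edgeR adjusted p = 7.24e-13) from 106 ± 6 and 102 ± 2 CPM to 63.2 ± 0.9 and 54.8 ± 3.3 CPM. Sdcbp2, the other syntenin gene, fell by 36.9% (−0.66 ± 0.04, edgeR adjusted p = 1.31e-11) from 103 ± 5 and 104 ± 3 CPM to 69.2 ± 3.0 and 61.5 ± 1.4 CPM, while Sdcbp itself was called higher in the same average (0.16 ± 0.05, adjusted p = 0.00378). Among the syndecans, named here after their values were seen, Sdc2 (0.50), Sdc3 (0.94) and Sdc4 (0.17) were called higher and Sdc1 (−0.56) lower. In EV-Deficient cells Sdc1 had 447 ± 6 CPM without and 207 ± 8 CPM with drug, against 379.97 ± 13 and 377 ± 12 CPM in EV-Proficient cells. The Sdc3 response parted by label: it went from 4.65 ± 0.44 to 4.05 ± 0.19 CPM in EV-Proficient cells, not called (log2 −0.20 ± 0.15), and rose from 1.84 ± 0.16 to 7.82 ± 0.84 CPM in EV-Deficient cells (2.08 ± 0.16), with a called interaction (edgeR adjusted p = 3.50e-08). Sdc4 rose in EV-Proficient cells (0.38 ± 0.06) and was not called in EV-Deficient cells (−0.04 ± 0.06), and this interaction was called too (edgeR adjusted p = 3.02e-04). In EV-Deficient cells upper-quartile scaling and unscaled totals moved the median of all genes up by 0.18 and 0.32. The Sdc4 value there therefore holds for the main scaling only. Sdc2 rose under both labels (0.40 ± 0.07 and 0.60 ± 0.07). Pdcd6 (−0.47), the calcium-binding partner of ALIX, was lower as well. Between the EV labels 10 of the 39 differed under DMSO (3 higher, 7 lower; 23.0% of all genes) and 22 under paclitaxel (6 higher, 16 lower; 37.8% of all genes). The interaction was called for 22 of the 39 (8 positive, 14 negative), against 40.7% of all genes.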

How the data were processed

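Stranded libraries of poly(A)-selected RNA were made from 12 MOC2 samples, per the labels' protocols. The deposited table holds raw counts, whole numbers for each gene. STAR 2.5.0a and GRCm38 are named in the submitters' processing notes; the counting program, the annotation release and whether strand was used are not given in the sources used here. The 2 added lines, gfp and dngfr, held at most 0.00142% of a library's counts and stayed out of library sizes and tests. The 3995 genes that lack a symbol took up to 0.102% of a library. Sample titles gave the groups and the replicate numbers.

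The members, the list of other pathway genes and the motifs were chosen with earlier results of these data known. The counts were fitted by edgeR 4.0.16 (R 4.3.3), with filterByExpr on the 4 groups with a minimum count of 10, trimmed mean of M values (factors 0.890 to 1.15), and a single quasi-likelihood fit of the 4 group means to the whole table. Adjusted p-values are Benjamini-Hochberg values over all genes tested, called under 0.05. Fold changes are log2 with standard errors. Values per library were printed for the 4 highest and 4 lowest members called in the averaged paclitaxel comparison, the largest called interactions (up to 3 in each direction), each with a mean of at least 5 CPM, and 8 fixed members; of the other pathway genes, group means were printed for the 2 highest and 2 lowest with that mean. Exon lengths, positions and overlaps came from GENCODE M21 on the same build, and promoters from RefSeq.

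No pair of replicates agreed within sampling noise (chi-square per degree of freedom 4.20 to 27.8 over 12 pairs), so none was merged. Intervals and floors cover counting error only where they rest on counts, because PCR copies were not told apart from separate molecules. Counts were also simulated for the averaged paclitaxel comparison (17450 genes). At 8 CPM or more edgeR recovered 68% of 25 genes changed 1.2-fold and 100% of those changed 1.5-fold, 2-fold and 4-fold. It made 8 false calls. At each fold 47 to 49 of the 17450 genes were changed, whereas 68.4% of all genes were called in the data. Recovery and false calls with so large a share of genes changed were not tested. The alternatives tried were 2 other scalings (upper-quartile and median-of-ratios), 2 other filters (none, or 1 CPM in at least 3 libraries), limma-voom (limma 3.58.1) and DESeq2 1.42.0 in place of edgeR, the replicate number as a block, fits to the compared groups by themselves, and fits without each library. Unscaled library totals and DMSO controls of the other EV label were added after seeing the data.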

Additional observations from a re-analysis of the deposited data

Results flagged for a closer look

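For 8 members the response to paclitaxel differed between the EV labels by the test of the interaction (edgeR adjusted p under 0.05, where 40.7% of all genes were called). The difference, EV-Deficient minus EV-Proficient on the log2 scale, was 0.61 for Chmp2b, 0.56 for Sdcbp, 0.56 for Chmp4c, 0.53 for Chmp1b, 0.39 for Vps4a and 0.26 for Chmp3, and −0.51 for Mvb12a and −0.67 for Vps37b. For Chmp3 the call was lost in 5 of 20 alternative settings, and for the other 7 in 0.

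The dngfr line, which entered no comparison, reached 12.4 CPM in EV-Deficient paclitaxel replicate 3, above the 1.89 to 2.54 CPM of the EV-Deficient DMSO libraries. It was high in EV-Proficient DMSO and EV-Deficient paclitaxel and low in the other pair of groups.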

How the results depend on the processing

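The count of members called with paclitaxel, averaged over the EV labels, was 18, from 17 to 19 without any 1 library and from 17 to 27 under the other alternatives. It was 14 in EV-Proficient (13 to 19 without a library, 13 to 16 otherwise) and 19 in EV-Deficient cells (14 to 18, and 16 to 27). Between the labels it was 8 under DMSO (3 to 10 without a library; 14 with only the groups compared) and 9 under paclitaxel (7 to 10; 14 on unscaled library totals). The interaction count was 8 (7 to 10 without a library) and became 14 with upper-quartile scaling and 14 on unscaled totals. The cause of these moves was not tested. In the average, signs turned on unscaled totals for 11 of the 30 tested members and with upper-quartile scaling for 6. On unscaled totals these were Vps36 (0.11), Chmp1a (0.11), Chmp3 (0.073), Ist1 (0.057), Ptpn23 (0.026), Chmp4b (0.23), Vps4a (0.22), Stam2 (0.24), Ubap1 (0.23), Vta1 (0.22) and Chmp7 (0.15). With upper-quartile scaling they were Chmp4b (0.092), Vps4a (0.079), Stam2 (0.10), Ubap1 (0.095), Vta1 (0.081) and Chmp7 (0.0094), and the 1 CPM filter turned Chmp4b (0.0079), Stam2 and Ubap1. Mvb12a ran from −0.043 to 0.046 over the fits without a library, negative without EV-Proficient DMSO replicate 1, EV-Proficient paclitaxel replicate 2 or EV-Deficient paclitaxel replicate 2. Mvb12b (lowest −0.019) turned without replicate 2 and Usp8 (lowest −0.0019) without replicate 1 of either paclitaxel group. Over the 22 averaged fold changes and 8 interactions tracked under 20 alternatives each, 560 values kept direction and side of the threshold, 21 lost a call, 6 gained one and 13 changed sign; calls within a label or between labels are not in these counts.

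The replicate numbers did not pair the samples: deviations of same-numbered libraries correlated between −0.0812 and 0.0970 in 12 pairs, 0 over 0.1. With the replicate block the member counts were 18 in the average, 15 and 18 in EV-Proficient and EV-Deficient cells, 7 and 9 between labels under DMSO and paclitaxel, and 8 for the interaction. Vps25, at 0 to 23 counts, was too low to test; whether depth or the exon bases shared with Ramp2 set this was not tested.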
